A study of Mus musculus with 31 samples.

Results

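Cxcl9, Cxcl10 and Cxcl11 encode the CXC chemokines that bind the receptor CXCR3. The 3 genes were taken by name from a count table of 54532 genes in cultured mouse microglia and by the same gene identifiers from a count table of 48795 genes in mouse hippocampus. All 3 were present in both tables. The microglial samples were 18 libraries of primary cells, 3 in each of 6 groups. Wild-type (WT) cells and cells of cGAS knockout (KO) mice received vehicle, fibrils of tau, or HT-DNA, the double-stranded DNA of herring testis, which activates the sensor cGAS. Per the study's methods the cells came from cortices of newborn pups, stimulus followed plating by 24 h, and RNA was taken 6 h after tau fibrils at 2 µg/ml or HT-DNA at 1 µg/ml. The hippocampi came from 6 P301S mice (3 female, 3 male), which carry a transgene for human tau with that substitution, and 7 non-transgenic mice (Ntg, 3 female, 4 male), all labelled 8 to 9 months old. The Cgas genotype of those 13 mice was not given in the sources used here.

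CXCR3 is carried by activated T cells and natural killer cells, and its 3 ligands draw those cells into inflamed tissue. All 3 ligand genes are classic interferon targets: interferon-γ acts in part through IRF1, type I interferon acts through a complex that holds IRF9, and NF-κB adds to transcription of Cxcl10. Cxcl10 is known to respond to either interferon class and to IRF3 directly, whereas Cxcl9 depends more on interferon-γ. In brain, microglia and astrocytes are known sources of CXCL10. In the mouse reference strain Cxcl11 carries a frameshift, and its transcripts were counted here without regard to protein.

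The genes lie side by side on the minus strand of chromosome 5 (GRCm38). Cxcl9 (ENSMUSG00000029417) spans 92321347 to 92328079, Cxcl10 (ENSMUSG00000034855) 92346638 to 92348889 and Cxcl11 (ENSMUSG00000060183) 92359544 to 92365485. GENCODE annotates the first and second as protein coding and Cxcl11 as a polymorphic pseudogene. Art3, which encodes a mono-ADP-ribosyltransferase family protein, runs over Cxcl10 and Cxcl11 on the opposite strand, so without strand-aware counting reads of the overlap cannot be told apart.

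The 250 bases before the gene start are shown for Cxcl10 and Cxcl9 so that the letters known to be read by interferon and NF-κB factors can be compared between the most abundant ligand and a rarer one. They are RefSeq sequence of GRCm38, read 5′ to 3′ on the minus strand (Cxcl10 at chr5:92348890-92349139 and Cxcl9 at chr5:92328080-92328329), and capitals mark matches to the motifs searched.
Cxcl10: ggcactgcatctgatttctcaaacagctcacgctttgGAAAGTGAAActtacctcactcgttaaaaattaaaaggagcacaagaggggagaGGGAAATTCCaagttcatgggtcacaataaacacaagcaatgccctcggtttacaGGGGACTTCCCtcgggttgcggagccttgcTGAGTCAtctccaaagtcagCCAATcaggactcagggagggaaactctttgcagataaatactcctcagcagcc
Cxcl9: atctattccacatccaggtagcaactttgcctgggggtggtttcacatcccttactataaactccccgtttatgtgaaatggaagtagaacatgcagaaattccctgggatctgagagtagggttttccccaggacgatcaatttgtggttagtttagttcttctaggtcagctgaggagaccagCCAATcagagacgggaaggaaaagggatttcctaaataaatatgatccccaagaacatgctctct

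The motifs were chosen with these sequences known and were searched on both strands. The interferon-stimulated response element core (GAAA, any 2 bases, GAAA) matched Cxcl10 once, at 213 to 204 bases before the gene start, and 2.98% of 32851 promoter windows of this length held it. The κB consensus matched Cxcl10 at 159 to 150 bases and, as overlapping matches, at 104 to 94 bases, with 7.25% of windows holding it. The AP-1 letters TGANTCA matched Cxcl10 at 74 to 68 bases, in 6.75% of windows. The interferon-γ-activated site letters TTCNNNGAA, held by 7.02% of windows, matched neither window. CCAAT, held by 33.8% of windows, matched both, inside the longest run that the sequences share, cagccaatcag of 11 bases. None of these matches shows that a factor binds there. A missing match does not show that a site is absent, because only these exact letters were searched.

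Total counts were 17037459 to 25174764 per microglial library and 25953296 to 35779977 per hippocampal library. The targeted gene Cgas, listed under its older symbol Mb21d1, held 434 to 812 counts in WT libraries and 71 to 180 in KO libraries. Its residual reads mean that the knockout label was checked by a drop and not by absence. Reads assigned to Mapt, the gene of tau, gave 858 to 1125 CPM (counts scaled to a common library size) in P301S hippocampi and 519 to 642 in Ntg. CPM were computed on library sizes scaled by TMM, a factor that sets aside the genes that change most. The study describes its microglial replicates as biologically independent, without saying whether they came from separate litters or cultures, and p-values measure the spread between these libraries.

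Cxcl10 was by far the most abundant ligand in the microglia. In WT cells with vehicle its 3 libraries held 2306, 775 and 1252 counts, or 102, 33.5 and 67.6 CPM. With tau fibrils they held 11169, 9448 and 12224 counts, or 609, 447 and 634 CPM. With HT-DNA they held 15488, 18599 and 17981 counts, or 841, 1002 and 982 CPM. The 3 WT groups did not overlap. KO cells with vehicle held 11, 12 and 9 counts, or 0.614, 0.6255 and 0.396 CPM. KO cells with tau held 566, 568 and 532 counts, or 24.96, 23.8 and 20.8 CPM. KO cells with HT-DNA held 15, 59 and 18 counts, or 0.795, 2.37 and 0.752 CPM, with the second library well above the others for this gene. Over genes with at least 20 reads in a pair of libraries, it was the first that stood apart. Its chi-square per degree of freedom was 22.4 against the second and 28.0 against the third, and 4.16 between those. The order of mean Cxcl10 CPM was therefore WT HT-DNA (942 ± 87.5), WT tau (563 ± 102), WT vehicle (67.8 ± 34.3), KO tau (23.2 ± 2.14), KO HT-DNA (1.30 ± 0.920) and KO vehicle (0.545 ± 0.129; all SD, n = 3). No neighbours in that order overlapped, but KO HT-DNA and KO vehicle did not differ by the test given below. The step from WT vehicle to KO tau was not tested.

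Cxcl9 was seen at far lower counts and only above a few reads in stimulated WT cells. Its WT libraries held 4, 0 and 1 counts with vehicle, 36, 48 and 45 with tau and 62, 65 and 67 with HT-DNA. Its KO libraries held 0, 0 and 3 counts with vehicle, 4, 2 and 5 with tau and 0, 0 and 0 with HT-DNA. WT HT-DNA (3.51 ± 0.146 CPM) lay above WT tau (2.19 ± 0.197), and the libraries of the other 4 groups lay within 0 to 0.196 CPM, at 5 counts or fewer.

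Cxcl11 followed the same outline at a lower level still. Its WT libraries held 3, 0 and 3 counts with vehicle, 13, 13 and 23 with tau and 27, 50 and 56 with HT-DNA. In KO cells 1 read was counted in 9 libraries, in the second tau library. Mean Cxcl11 was 2.41 ± 0.834 CPM with HT-DNA and 0.839 ± 0.310 CPM with tau in WT cells, and the remaining 4 groups lay at or under 3 counts per library. A count of 0 over the 3 KO HT-DNA libraries allows up to 0.0443 CPM, counting error only.

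**Figure D1:**
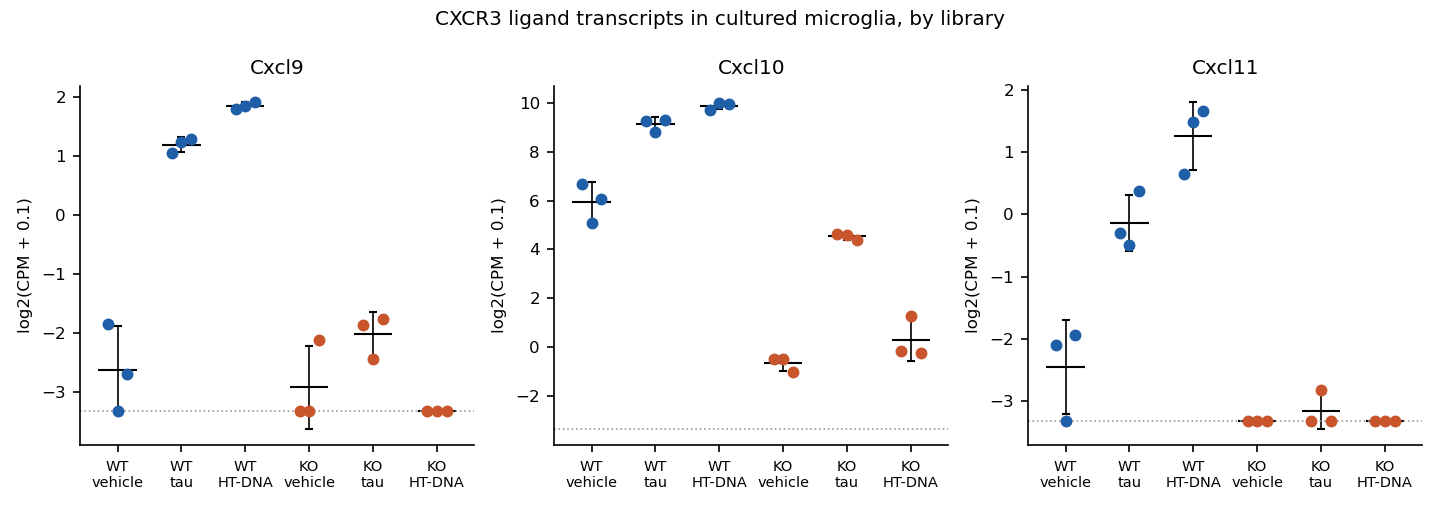
Each point is 1 microglial library, with log2(CPM + 0.1) on the vertical axis and 3 libraries per group; bars are the mean ± SD and the dotted line is a count of 0. Cxcl10 falls from 942 CPM in WT cells with HT-DNA to 0.545 CPM in KO cells with vehicle, while Cxcl9 and Cxcl11 leave the lowest levels only in stimulated WT cells.

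Lengths were the union of all annotated exons of a gene. For Cxcl10 that union was 1 block of 2252 bases, its whole span, against 4 blocks each for Cxcl9 and Cxcl11. Its per-kb level is therefore per length of gene and may be low beside the others. Divided by that length, Cxcl10 reached 418 ± 38.8 CPM per kb in WT cells with HT-DNA, Cxcl9 1.16 ± 0.0484 and Cxcl11 0.634 ± 0.220 (SD, n = 3). Cxcl10 made up 99.5 to 99.7% of the summed per-kb level of the ligands in every WT library with tau or HT-DNA. The labels name a kit that reads transcript 3′ ends, for which counts need not scale with length. On plain CPM the order was the same.

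The first comparison asked what tau fibrils did in WT microglia, and all 3 ligands rose. By edgeR's quasi-likelihood test with Benjamini-Hochberg adjustment over 13675 genes, a gene was called at adjusted p below 0.05 and a log2 fold change beyond 1, which 2.89% of genes passed upwards. Cxcl10 rose by a log2 fold change of 3.06 (SE 0.20, adjusted p = 1.99e-12), or 8.28-fold on pooled counts (95% counting interval 8.02 to 8.55). Cxcl9 rose by 4.71 (SE 0.55, adjusted p = 1.34e-07), or 28.2-fold with an interval of 11.8 to 88.3. Cxcl11 rose by 3.08 (SE 0.66, adjusted p = 0.000845), or 8.92-fold with an interval of 3.82 to 25.5. For each gene the lowest tau library lay above the highest vehicle library, a description given without the share of all genes that do so. Cxcl9 and Cxcl11 passed the filter on low counts only through the stimulated WT groups, so that they were tested at all depended on their being high there. Their vehicle counts are so few that 1 library moved the fold: Cxcl9 stood at 6.19 without WT vehicle library 1 and 4.11 without library 2, and Cxcl11 at 2.47 without library 2.

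HT-DNA raised all 3 in WT cells too, against 5.29% of genes called higher. Cxcl10 rose by 3.80 on the log2 scale (SE 0.21, adjusted p = 7.26e-15), Cxcl9 by 5.39 (SE 0.53, adjusted p = 3.05e-09) and Cxcl11 by 4.59 (SE 0.59, adjusted p = 5.90e-07). The pooled ratios were 13.96, 45.1 and 25.7. For Cxcl9 and Cxcl11 the limit of the filter given above holds here as well. Here too Cxcl9 stood at 6.87 without WT vehicle library 1 and 4.79 without library 2, and Cxcl11 at 3.99 without library 2. Setting both stimuli side by side in WT cells, every HT-DNA library lay above every tau library for each ligand. The share of all genes that separate this way is not given, so this is a description. Against 1.49% of genes called lower with tau, Cxcl11 was called lower, by 1.52 on the log2 scale (SE 0.43, adjusted p = 0.00724). Cxcl10 was 0.74 lower (SE 0.18, adjusted p = 0.00201), past the p threshold but short of the fold, and Cxcl9 differed by -0.68 (SE 0.33, adjusted p = 0.122), which did not pass.

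The mix of ligands was compared between the stimuli with log2 ratios within a library. Cxcl9 to Cxcl10 stood at -7.93 ± 0.33 with tau and -8.02 ± 0.10 with HT-DNA, and Cxcl11 to Cxcl10 at -9.26 ± 0.31 and -8.61 ± 0.41 (SD, n = 3). Cxcl11 to Cxcl9 stood at -1.33 ± 0.41 with tau and -0.59 ± 0.49 with HT-DNA. Exact two-sided permutation tests gave p = 0.8, 0.2 and 0.2, but 3 libraries against 3 cannot go below 0.1, so no ratio could have passed and the values are a description.

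In KO cells Cxcl10 was the 1 ligand called higher with tau. Cxcl10 rose by 5.42 on the log2 scale (SE 0.50, adjusted p = 1.23e-09), from 11, 12 and 9 counts to 566, 568 and 532, where 2.46% of genes were called higher. That is 43.2-fold on pooled counts (interval 30.5 to 63.4). Cxcl9 held 11 counts over 3 libraries against 3, a ratio of 3.04 with an interval of 0.804 to 16.98, and was not called (log2 fold change 1.51, SE 0.91, adjusted p = 0.316). Without KO vehicle library 3, which held all 3 of those counts, the adjusted p was 0.0565. Cxcl11 was too rare for a fold.

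HT-DNA gave no call for any ligand in KO cells, where 0.0146% of genes, 2 in number, were called higher. Cxcl10 held 92 counts over 3 libraries against 32, a ratio of 2.54 with a counting interval of 1.68 to 3.93. The fitted log2 change was 1.33 (SE 0.91, adjusted p = 0.599), and the second library alone held 59 of the counts. With no filter on low counts the same log2 change passed the threshold (adjusted p = 0.000397). Without the second HT-DNA library it was 0.52 (adjusted p = 0.924). Tau against HT-DNA in KO cells, with 2.38% of genes called higher, gave Cxcl10 4.09 higher with tau (SE 0.40, adjusted p = 4.60e-09), or 4.90 without KO HT-DNA library 2. Cxcl9, at 11 counts against 0, was at least 3.44-fold higher (adjusted p = 0.0174), and that call was lost without KO HT-DNA library 2 or 3 or KO tau library 3 (adjusted p up to 0.0594).

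Between genotypes Cxcl10 was lower in KO cells under each condition. With vehicle, where 7.35% of genes were called lower, it was 6.97 lower on the log2 scale (SE 0.43, adjusted p = 9.73e-14), or 126-fold on pooled counts (interval 89.2 to 185). Cxcl9, at 3 against 5 counts, was not told apart (ratio 0.644, interval 0.09999 to 3.31, adjusted p = 0.673), and Cxcl11 was at or under 3 counts in every library of both groups. With tau, where 7.41% were called lower, all 3 were called. Cxcl9 and Cxcl11 were tested only because they were high in stimulated WT cells, so their calls with tau and HT-DNA restate those counts. Cxcl10 was 4.60 lower (SE 0.23, adjusted p = 8.63e-16), or 24.2-fold, and Cxcl9 was 3.79 lower (SE 0.48, adjusted p = 2.37e-07), or 14.4-fold. Cxcl11 held 1 count against 49, a 60.1-fold ratio with an interval of 10.3 to 2422 (adjusted p = 1.49e-05). The adjusted p was at most 0.000222 without any 1 library, although without the second KO tau library the KO count was 0 and no fold can be given. With HT-DNA, where 11.8% were called lower, Cxcl10 was 9.43 lower (SE 0.33, adjusted p = 5.52e-20), or 693-fold, and its log2 difference was -10.2 without KO HT-DNA library 2. Cxcl9 and Cxcl11, at 0 counts in KO cells, were at least 79.2-fold and 54.3-fold lower (adjusted p = 1.40e-10 and 1.68e-08).

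Markers of other cell types moved with genotype in the same libraries. Of all genes tested, 7.35% were called lower in KO cells with vehicle, 7.41% with tau and 11.8% with HT-DNA. The summed CPM of 5 fibroblast markers was 1.09 to 5.65 in WT and 0.0521 to 0.441 in KO libraries, and all 3 of those tested were lower in KO cells under each condition; Col3a1 and Lum were at 0 in KO vehicle. The sum of 5 endothelial markers was 87.4 to 280 CPM in WT and 20.7 to 28.3 in KO, with 2 of 2 tested lower, and Cldn5 was at 0 in KO vehicle. Flt1 alone made up nearly all of that sum, at 275 of a mean 278 CPM in WT HT-DNA and 22.6 of 22.8 in KO vehicle. The sum of 6 astrocyte markers was 4.80 to 14.6 CPM in WT and 0.689 to 1.81 in KO. The sum of 6 border macrophage and monocyte markers was 73.7 to 107 CPM in WT and 26.6 to 31.7 in KO. Nearly all of it was Mrc1, at 98.3 of a mean 100.3 CPM in WT HT-DNA, and Mrc1 was lower under each condition. Ccr2, the 1 other marker tested, was not called (0.11 with vehicle, 0.083 with tau and -0.23 with HT-DNA). Lyve1, at a few counts, was higher in KO than in WT cells with vehicle (0.283 against 0.138 CPM). The sum of 5 oligodendrocyte markers was 64.4 to 117 CPM in WT and 50.3 to 54.5 in KO, with 2 of 4 tested lower. Homeostatic microglial markers summed to 2111 to 2395 CPM in WT and 1479 to 1643 in KO. Fewer cells of a type and less RNA per cell cannot be told apart in bulk samples, and the part of these markers in the ligand differences was not tested. Within WT cells 2 sums followed the order of the ligands without overlap. The astrocyte sum was 4.80 to 6.07 CPM with vehicle, 7.83 to 9.82 with tau and 11.3 to 14.6 with HT-DNA, and the endothelial sum 87.4 to 98.7, 100.1 to 125 and 277 to 280 CPM. The endothelial order was thus in the main that of Flt1, at means of 92.8, 112 and 275 CPM. The astrocyte order was not shared by all its markers. Of 5 tested, 1 was called higher with tau and 2 had a positive log2 change (median -0.20). With HT-DNA 1 was called higher and 4 were positive (median 0.59). Of all genes tested, 2.89% were called higher with tau and 5.29% with HT-DNA. The fibroblast sums overlapped between the WT groups, and the border macrophage and oligodendrocyte sums were higher with HT-DNA than with vehicle but not with tau.

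The design also allowed the change with a stimulus to be compared between genotypes. For tau, 6.91% of genes differed in either direction at adjusted p below 0.05. Cxcl10 was 1 of them, and its log2 fold change was 2.36 larger in KO than in WT cells (SE 0.70, adjusted p = 0.0363). In CPM the order was the opposite: tau added 22.6 ± 1.24 in KO cells and 495 ± 62.002 in WT cells (SE, n = 3 against 3). The KO vehicle level behind that ratio rested on 32 counts in all. Without any one of the KO vehicle libraries, or without KO tau library 1 or 2, the adjusted p was 0.0512 to 0.141. For Cxcl9 the difference was -3.21 (SE 1.43, adjusted p = 0.203). For HT-DNA, where 34% of genes differed, Cxcl10 changed by 2.47 less on the log2 scale in KO cells (SE 1.14) and did not pass (adjusted p = 0.1003). DESeq2's Wald test gave -2.55 and passed (adjusted p = 0.000291). Cxcl9 passed (adjusted p = 0.00135), with 0 counts in KO HT-DNA, but it was tested only because it was high in stimulated WT cells. Without KO vehicle library 3 the adjusted p was 0.9998.

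**Figure D2:**
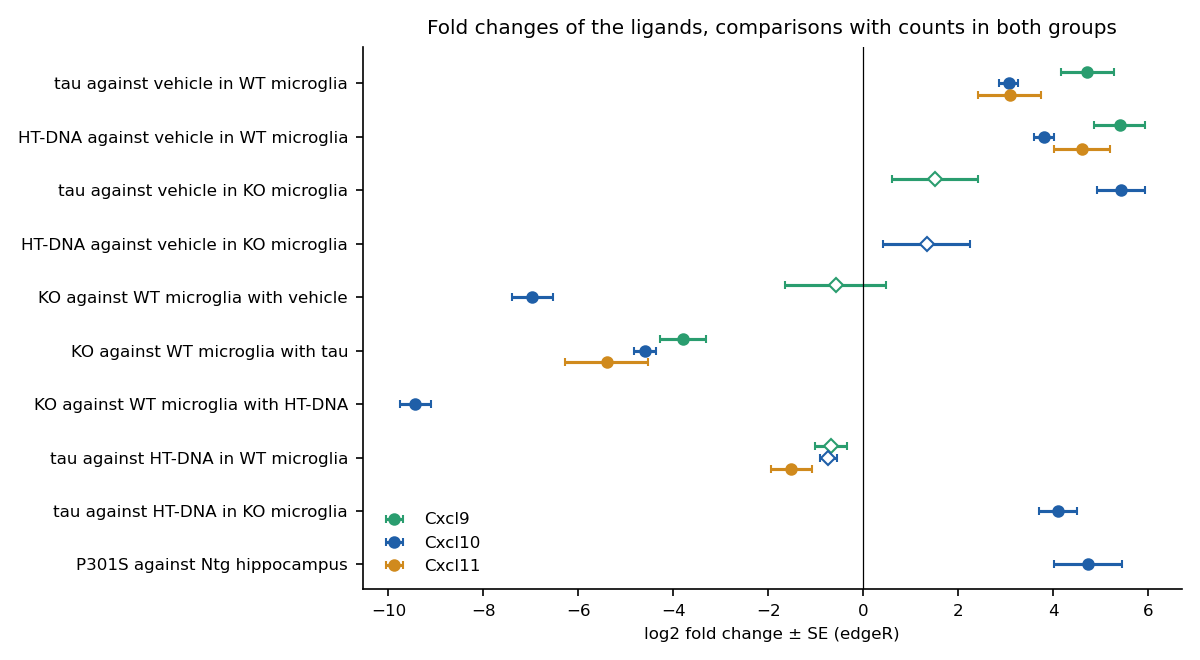
Points are log2 fold changes from edgeR and bars are 1 SE; filled circles passed the threshold of the comparison and open diamonds did not, and ligands with no counts in a group, or not tested in hippocampus, are left out. Cxcl10 is 3.06 higher with tau in WT cells, 5.42 higher with tau in KO cells and 9.43 lower in KO than in WT cells with HT-DNA.

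The genes around the ligands in the pathway were taken in the order cytokine, receptor, transcription factor and feedback. Of 13 cytokines known to induce the ligands, 8 held 5 counts or fewer in every microglial library and were not tested. Of the other 5, Ifnb1 and Il12b passed the filter only through the groups where they were high. Values are therefore given for single genes, and not for the list or for all 5 of them. Ifnb1, which encodes interferon-β, held 10, 0 and 3 counts in WT cells with vehicle, 11, 1 and 2 with tau and 71, 96 and 83 with HT-DNA. It was called with HT-DNA (log2 fold change 4.44, SE 0.58, adjusted p = 6.80e-07), while with tau the change was 0.24 (SE 0.83, adjusted p = 0.872). In KO cells 1 Ifnb1 read was counted in 9 libraries. Ifng, which encodes interferon-γ, had no count in the 18 microglial libraries.

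Il12b, which encodes the p40 chain of interleukin-12, showed the reverse. It held 189 to 263 counts in WT tau libraries, 0 to 5 with vehicle and 0 to 6 with HT-DNA, so it was called with tau (log2 fold change 6.58, SE 0.38, adjusted p = 5.07e-13) and not with HT-DNA (0.21, SE 0.90, adjusted p = 0.876). Because Ifnb1 and Il12b were tested only through the groups where they were high, these calls restate the counts. In KO cells Il12b held 139 to 158 counts with tau and 0 with vehicle, where Cxcl10 also rose. Tnf, the gene of tumour necrosis factor, rose by 2.09 with tau and 2.25 with HT-DNA in WT cells (adjusted p = 6.82e-15 and 1.80e-16). In KO cells with tau Tnf changed by 0.69, past the p threshold (6.40e-06) but short of the fold, and its tau change was 1.40 smaller there than in WT cells (adjusted p = 1.59e-07). Il18 rose by 1.34 with tau and 2.50 with HT-DNA in WT cells (adjusted p = 1.25e-09 and 3.43e-16).

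Of 9 cytokine receptor and Janus kinase genes, 1 was called with tau and 1 with HT-DNA in WT cells (medians 0.28 and 0.27), and both times it was Jak2, the kinase paired with the interferon-γ receptor (1.14 and 1.59; adjusted p = 2.62e-14 and 5.86e-18). Of all genes tested, 2.89% were called higher with tau and 5.29% with HT-DNA in WT cells. None of the 9 genes was called with tau in KO cells, where 2.46% of all genes were called higher. Of 5 DNA-sensing genes, 4 were tested, Trex1 being listed at 0 throughout, and 1 was higher with tau in WT and in KO cells. That gene was Ikbke, which encodes the kinase IKKε (1.16 and 1.13, adjusted p = 2.64e-14 and 5.68e-15).

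All 13 transcription factor genes were tested. With tau 4 were higher in WT cells (median 0.70) and 5 in KO cells (0.64), and with HT-DNA 4 in WT cells (0.52). Of all genes tested, 2.89%, 2.46% and 5.29% were called higher in these comparisons. Irf1, the factor induced by interferon-γ, rose by 1.08 in WT and 1.20 in KO cells (adjusted p = 4.02e-10 and 1.70e-09), with no difference between genotypes called (0.12, adjusted p = 0.708). Irf7, a factor that amplifies type I interferon, rose by 1.57 in WT and 4.83 in KO cells (adjusted p = 1.26e-11 and 4.46e-18). Mean Irf7 went from 173 to 512 CPM in WT cells and from 4.31 to 123 CPM in KO cells, so the larger fold started from a far lower level. The feedback genes rose alongside, 3 of 6 with tau and 5 of 6 with HT-DNA in WT cells (medians 1.10 and 1.27) and 2 of 6 with tau in KO cells (0.55). Usp18, which blocks the type I interferon receptor, rose by 1.59 with tau and 2.37 with HT-DNA in WT and 5.28 with tau in KO cells (adjusted p = 4.15e-10, 3.99e-14 and 7.35e-16). Each fold is over vehicle cells of the same genotype and does not compare levels between genotypes.

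**Figure D3:**
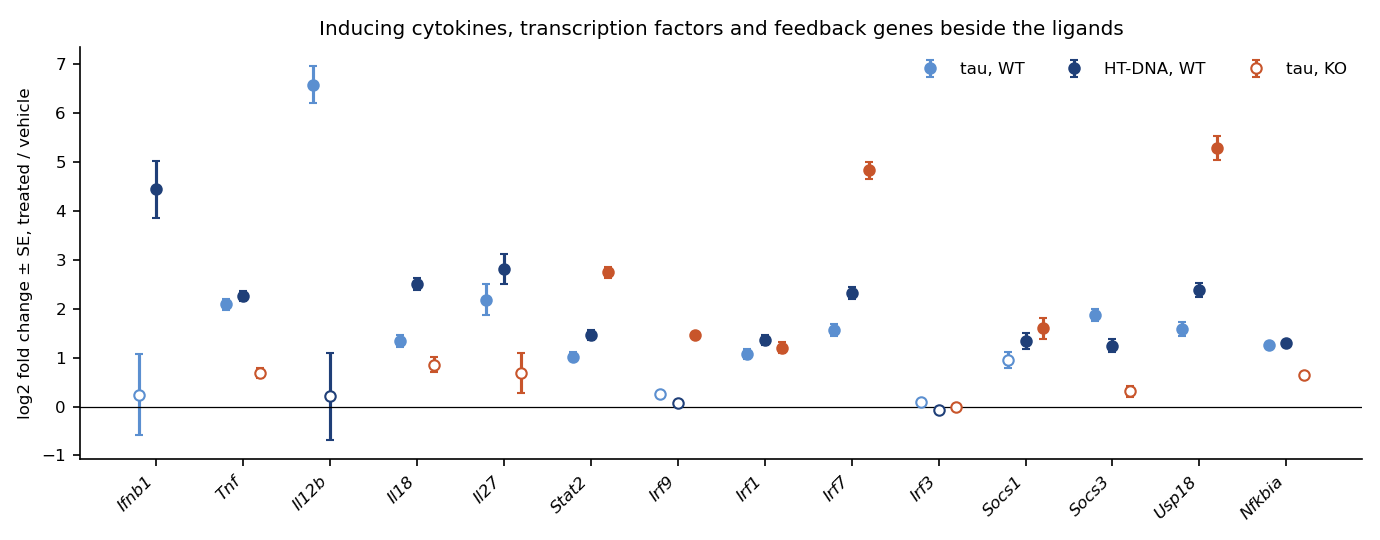
Each point is the log2 fold change of 1 gene from edgeR against vehicle, with 1 SE, in WT cells with tau, WT cells with HT-DNA and KO cells with tau; filled points passed the threshold, and Ifnb1 and Il12b in KO cells are left out because the vehicle libraries held no counts. Ifnb1 is 4.44 higher with HT-DNA and 0.24 higher with tau, while Il12b is 6.58 higher with tau.

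The receptor gene Cxcr3 was rare in these cultures. Its WT libraries held 14, 14 and 3 counts with vehicle, 10, 3 and 2 with tau and 6, 0 and 2 with HT-DNA. In KO cells 1 read was counted in 9 libraries. Of 16 T and natural killer cell markers, Gzmb, Gzmk, Ncr1 and Nkg7 were at 0 in all microglial libraries, and the summed CPM was 4.71 to 10.5. Most of that sum was Lck, Cd5 and Klrb1c, at 5.46, 2.06 and 0.741 of a mean 8.72 CPM in WT HT-DNA. They were the 3 tested. Lck alone was called higher with HT-DNA in WT cells (1.03, edgeR adjusted p = 0.000108), where 5.29% of genes were, and none with tau.

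The microglial genes whose log2(CPM + 0.1) over the 18 libraries was most like that of Cxcl10 were Gbp9, Trim21, Samd9l, Ifi205 and Irgm2 (Pearson r of 0.997 to 0.995). For Cxcl9 they were Cd274, Isoc1, Jak2, Snw1 and Il27 (0.979 to 0.975), and for Cxcl11 Ythdf1, Rab22a, Prpf4, Rab21 and Rbl1 (0.991 to 0.984). The ligands correlated among themselves at 0.870 for Cxcl9 and Cxcl10, 0.946 for Cxcl9 and Cxcl11 and 0.868 for Cxcl10 and Cxcl11. These are descriptions: the points share libraries, depth and the same 6 groups.

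In hippocampus Cxcl10 was higher in P301S than in Ntg mice, and all 3 ligands leaned the same way. Its P301S values were 192 counts in mouse 29, 185 in mouse 36, 15 in mouse 43, 30 in mouse 63, 458 in mouse 65 and 401 in mouse 77, or 0.5259 to 17.4 CPM with a median of 6.35. The 7 Ntg mice held 2 to 13 counts, or 0.0758 to 0.429 CPM with a median of 0.295. No P301S mouse overlapped the Ntg range, and mouse 43 came closest. Cxcl10 was called higher, with 1.32% of 16453 genes called at a log2 fold change beyond 0.5. The fitted log2 fold change was 4.72 (SE 0.72, edgeR adjusted p = 0.0151), or 26.7-fold on pooled counts with a counting interval of 20.4 to 35.6. The exact two-sided permutation test gave p = 0.000583, the smallest that the 1716 splits allow. Without Ntg mouse 61 the log2 fold change was 4.73 and the adjusted p 0.0539.

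Cxcl9 and Cxcl11 had too few counts for the edgeR filter and were tested by permutation. Cxcl9 held 32, 33, 1, 3, 56 and 43 counts in P301S mice 29, 36, 43, 63, 65 and 77, and 0 to 7 in Ntg mice with a median of 2. Its P301S mice fell into the same high and low sets as for Cxcl10, and 4 of 6 lay above all Ntg mice. The mean log2(CPM + 0.1) differed by 2.07 (exact two-sided permutation p = 0.0163). With no filter, edgeR's log2 fold change was 3.53 and the adjusted p 0.0294.

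Cxcl11 held 3, 1, 0, 1, 6 and 1 counts in the same P301S mice and 1 count in the 7 Ntg mice together. The difference of mean log2(CPM + 0.1) was 0.60 (exact two-sided permutation p = 0.0128). With so few reads the pooled ratio was 13.7 with an interval of 2.03 to 588. With no filter, edgeR did not call it (adjusted p = 0.149).

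Per kb of the exon union, which for Cxcl10 is its whole span, the P301S mean was 3.19 ± 2.85 for Cxcl10. It was 0.314 ± 0.259 for Cxcl9 and 0.0186 ± 0.0220 for Cxcl11 (SD, n = 6). Sex did not separate the mice: the highest and the lowest P301S Cxcl10 were both female, and the difference of the P301S change between sexes was -0.50 on the log2 scale (SE 1.56, adjusted p = 0.879). Mapt reads in the 2 lowest mice, 970 and 1125 CPM, lay within the range of the other P301S mice or above it.

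**Figure D4:**
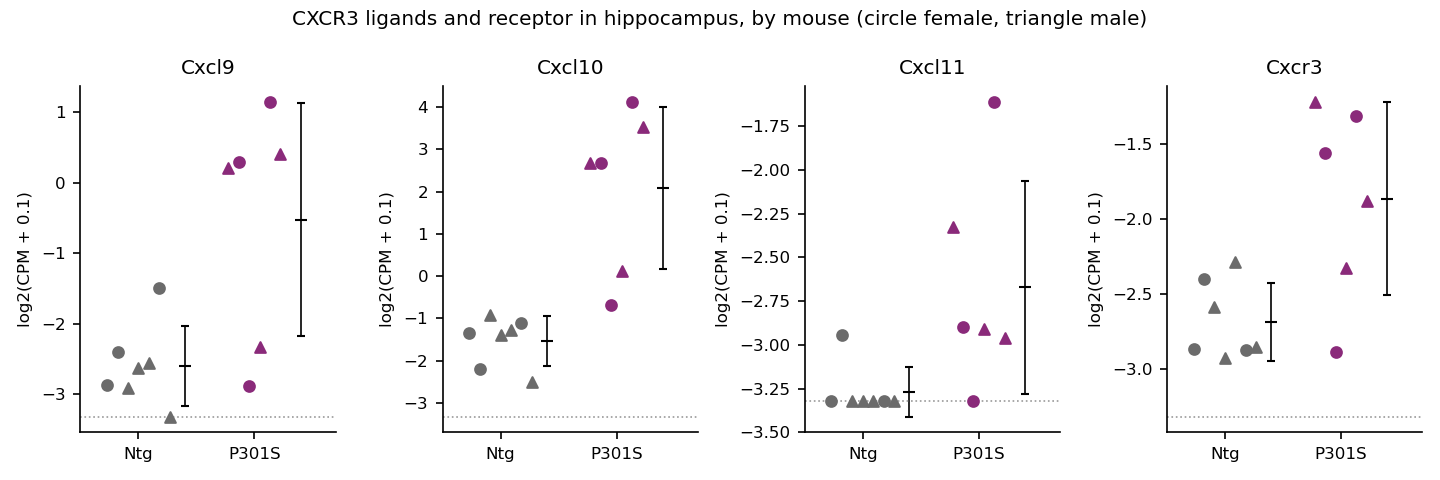
Each point is 1 mouse, circles female and triangles male, with log2(CPM + 0.1) on the vertical axis; bars are the mean ± SD and the dotted line is a count of 0. The highest Ntg mouse is exceeded by 6 of 6 P301S mice for Cxcl10 and by 4 of 6 for Cxcl9 and Cxcr3.

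Cxcr3 itself was counted in hippocampus at 10, 7, 1, 3, 8 and 6 reads in P301S mice 29, 36, 43, 63, 65 and 77 and at 1 to 3 in Ntg mice. The same 4 mice that led for Cxcl10 and Cxcl9 lay above all Ntg mice. The mean log2(CPM + 0.1) differed by 0.82 (exact two-sided permutation p = 0.0140). That test of Cxcr3 was added after its values were seen. Ackr3, a scavenging receptor that binds CXCL11, and Dpp4, a protease that trims the ligands, were not called (-0.18 and 0.34, adjusted p = 0.593 and 0.714).

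Sums of marker lists are given beside the ligands, and their association with the ligands from mouse to mouse was not tested. The 16 T and natural killer cell markers summed to 12.8, 8.58, 4.77, 3.73, 12.2 and 7.77 CPM in P301S mice 29, 36, 43, 63, 65 and 77 and to 4.31 to 6.93 CPM in Ntg mice, and 0 of the 5 tested were called. The mean CPM was higher in P301S mice for 14 of the 16 and lower for Gzmk (0.672 against 0.931) and Lck (1.73 against 1.95), the 2 named here after their values were seen. Trbc2, also named after its values were seen, had means of 2.07 CPM in P301S and 0.537 in Ntg mice, a large part of the difference in the sum. The 6 myeloid markers summed to 354, 377, 133, 142, 354 and 211 CPM in the same P301S mice and to 125 to 157 in Ntg mice, with 2 of 6 called higher. The 7 homeostatic microglial markers summed to 245 to 553 and 257 to 314 CPM, with none called. The 6 astrocyte markers summed to 1466 to 4606 and 1445 to 1642 CPM, with 1 called. The 5 oligodendrocyte markers summed to 3966 to 7378 and 3145 to 6336 CPM, with none called and all 5 means higher in P301S mice. Means were lower in P301S mice for 5 of 6 neuronal and 5 of 5 fibroblast markers. None of these lists had a marker at 0 throughout either group of mice. Of all genes tested, 1.32% were called higher in P301S mice. With the homeostatic markers as a covariate 36 genes were called higher in place of 217. Cxcl10 was among them, at a log2 difference of 2.94 in place of 4.72 (edgeR adjusted p = 0.00861). The part of each list in the ligand difference, the homeostatic one included, was not tested.

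**Figure D5:**
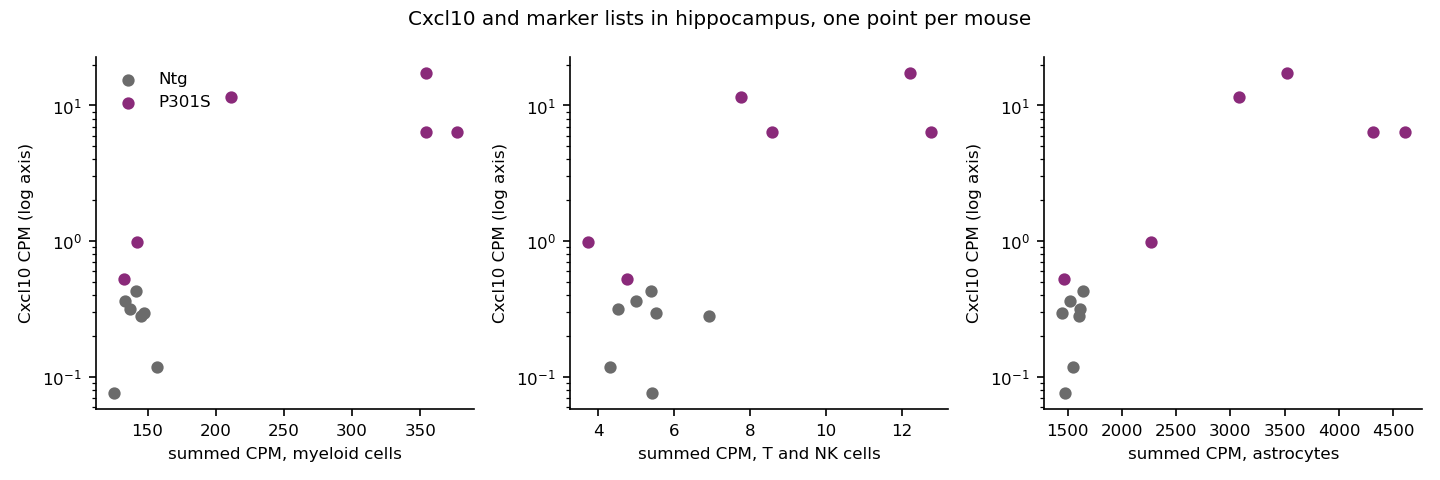
Each point is 1 mouse, with Cxcl10 CPM on a log axis against the summed CPM of the myeloid, T and natural killer cell and astrocyte marker lists. The 4 P301S mice above 6 CPM of Cxcl10 have myeloid sums of 211 to 377 CPM, and the other 2 have sums of 133 and 142 CPM, within the Ntg range of 125 to 157.

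Of the pathway, 3 of 13 transcription factors were higher in P301S hippocampus (median 0.55, against 0.00 over all genes), namely Irf7 (2.42, SE 0.46), Irf9 (1.24, SE 0.24) and Irf8 (1.56, SE 0.33), with adjusted p of 0.0303, 0.0303 and 0.0327. The share called higher over all genes tested was 1.32%. Irf1 differed by 0.55 (SE 0.21) and missed the threshold (adjusted p = 0.194). Of 6 feedback genes Socs3 and Usp18 were higher (1.93 and 2.71, adjusted p = 0.0169 and 0.0303). Each of these 5 calls was lost without some single mice, 9 of 13 for Irf7, Irf8, Irf9 and Usp18 and 5 of 13 for Socs3 (adjusted p up to 0.0917). None of the 9 receptor and Janus kinase genes or of the 2 inducing cytokines tested was called. Ifng was counted in mouse 65 alone, the mouse with the most Cxcl10, with 2 reads. The genes most like Cxcl10 over the 13 hippocampi were Gbp3, Igtp, Gbp5, Ifit1 and B2m (Pearson r of 0.995 to 0.963, a description over mice that share 2 groups).

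Of 7 neighbouring protein-coding genes, 5 were tested in microglia and none was called with tau or HT-DNA in WT cells (medians 0.07 and 0.49), and 0 of 6 tested were called in P301S hippocampus. Art3, which overlaps the cluster, changed by -0.02 with tau (adjusted p = 0.987) and by 1.14 with HT-DNA (SE 0.51, adjusted p = 0.0693) in WT cells. Art3 was lower in KO than in WT cells with vehicle (-2.14, adjusted p = 0.0169), tau (-2.39, adjusted p = 0.00815) and HT-DNA (-3.69, adjusted p = 3.44e-05), the 1 neighbour called there. Whether reads were shared between Art3 and the ligands was not tested.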

How the data were processed

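The deposited values were whole-number counts per gene, made by the authors from 18 microglial and 13 hippocampal RNA-seq libraries. Per the labels, libraries used a 3′ mRNA kit, and the submitters' processing notes name GRCm38, edgeR and limma. The aligner and counter were not given in the sources used here. The members and gene lists were chosen with earlier results of these data known.

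Counts were tested with edgeR 4.0.16 in R 4.3.3 (TMM, filterByExpr, quasi-likelihood, adjusted p below 0.05), all 6 microglial groups in one fit. Cxcl9 and Cxcl11 failed the filter in hippocampus and were tested by exact permutation of log2(CPM + 0.1). Pooled ratios carry exact binomial 95% intervals, and intervals and floors (3 counts over the group) cover counting error only. Replicates differed beyond sampling noise. Where libraries or mice are said not to overlap, the share of all genes that do so is not given, and the statement is a description. Genes named were the 3 ligands, Cgas and Mapt, up to 3 of smallest adjusted p per list, direction and comparison, Ifnb1, Ifng, Irf1 and Cxcr3, 5 likest genes and 3 neighbours on each side; a result that this rule would name is left out of the report. Alternatives were DESeq2 1.42.0, RLE scaling, no filter, a replicate block, only the groups compared, covariates, another pseudocount and leaving out each library. Scripts were tested on simulated data.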

Additional observations from a re-analysis of the deposited data

Results flagged for a closer look

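In 15 gene and group combinations of hippocampal mice, 5 held a mouse far from the rest of its group. Ntg mouse 68 had 0.253 CPM of Cxcl9, the next Ntg mouse 0.0892. The other 4 rest on 1 or 2 reads in a single mouse with 0 in the rest, which always stands apart, so the usual chance rate of about 1 in 20 does not apply to them: Cxcl11 in Ntg mouse 46 (0.0297 CPM), Ifnb1 in Ntg mouse 68 (0.0362) and in P301S mouse 65 (0.0379), and Ifng in P301S mouse 65 (0.0758).

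The change with a stimulus differed between genotypes by the test of that difference (edgeR) in 3 cases. With tau the log2 change in KO cells was 2.36 larger for Cxcl10. With HT-DNA the log2 change in KO cells differed from that in WT cells by -1.46 for Irf1. For Cxcl9 with HT-DNA the adjusted p was 0.00135, with no counts in KO cells with HT-DNA.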

How the results depend on the processing

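Of 383 alternative values for the ligands, 363 kept direction and side of the threshold. The replicate numbers did not pair the libraries (r of -0.085 to 0.0823 over 45 same-numbered pairs), and the replicate block changed no call of a ligand (Cxcl10 with tau, 3.09 in WT and 5.43 in KO). With no filter Cxcl10 was called with HT-DNA in KO cells (1.33), and the HT-DNA difference between genotypes was called with no filter (-2.46) and by DESeq2 (-2.55). With only the groups compared, Cxcl9 lost its call for tau against HT-DNA in KO cells (adjusted p = 0.0524). With a pseudocount of 1 the tau minus HT-DNA difference of Cxcl11 to Cxcl10 moved from -0.65 to -0.12. The cause was not tested.

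Leaving out 1 library gave, for Cxcl10, log2 differences between genotypes of 1.92 to 2.70 with tau (5 of 12 lost the call) and -3.28 to -2.13 with HT-DNA (3 of 12, without WT vehicle 1 or 2 or KO HT-DNA 2, gained it), and 4.23 to 4.96 in hippocampus. Folds of Cxcl9 and Cxcl11 over WT vehicle kept their calls but moved with its few counts (4.11 to 6.19 and 2.47 to 3.56 with tau, 4.79 to 6.87 and 3.99 to 5.07 with HT-DNA). For Cxcl9 it gave -4.69 to 0.015 for the tau difference between genotypes, reversed without KO vehicle 3; -3.81 to 0.89 for KO against WT with vehicle, reversed without WT vehicle 1; adjusted p of 0.000350 to 0.9998 for the HT-DNA difference between genotypes; and 0.0164 to 0.0594 for tau against HT-DNA in KO cells. Ifnb1 with tau in WT cells ranged from -1.37 to 1.65 (negative without WT tau 1 and, at -0.37, without WT vehicle 2), Cxcr3 for tau against HT-DNA in WT cells from -0.25 (without WT tau 1) to 2.10, and the tau difference of Irf1 between genotypes from -0.083 (without WT vehicle 1) to 0.29.

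In hippocampus 217 genes were called higher, 531 with DESeq2, 123 with sex and 36 with homeostatic markers as a covariate, and 10 (without Ntg 61) to 575 (without P301S 43) without 1 mouse. There 6 were called lower, 52 with DESeq2, 15 with no filter, 3 with sex and 1 with homeostatic markers, and 0 to 66 without 1 mouse. With HT-DNA in KO cells 2 were called higher, 20 with no filter, 8 with only those groups and 1 with the block, and 1 lower, 5 with no filter and 3 with DESeq2; leaving out 1 library gave 0 to 5 and 0 to 3. For tau against HT-DNA in KO cells 21 were lower, 35 with no filter. Without KO vehicle 1, 22 in place of 38 were lower with tau in KO cells, and without WT tau 1 or 3 the tau difference between genotypes had 321 or 325 in place of 493 higher and, without WT tau 3, 273 in place of 452 lower. Depth limits Cxcl9 and Cxcl11, at a few reads outside stimulated WT cells and 4 P301S mice.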
